A study of Caenorhabditis elegans with 2 samples.

Results

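Single-gene upstream promoter peaks are ChIP-seq peaks of SEM-4 whose summit lay outside the body of every annotated gene and in the promoter window of exactly 1 protein-coding gene. The window began 1000 bp before an annotated transcript start of that gene and ended 200 bp past it. In the reproducible list, 660 peaks met this rule and 1830 did not. They stood upstream of 646 protein-coding genes, and 14 of those genes had 2 such peaks. A transcript start is itself part of a gene body, so all 660 summits fell on the upstream side.

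The Spalt family of transcription factors, to which SEM-4 belongs, binds DNA through zinc fingers and is conserved up to mammals, where its members are the SALL proteins. A promoter is the stretch of DNA at a gene's start where the transcription machinery assembles, and factors bound just upstream help to set how often the gene is read. In C. elegans many transcripts are trimmed and joined to a spliced leader at their 5' end, so an annotated start can lie some way downstream of where transcription began. Promoters of broadly expressed genes are known in this organism to be recovered in ChIP-seq of many unrelated factors, and no other factor's data were analysed here.

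The study used whole L2 larvae of mixed sex from strain OP57, which has the genotype unc-119(ed3) III; wgIs57. All animals thus carried the unc-119 mutation and an integrated transgene expressing eGFP-tagged SEM-4 in addition to their own genes. The samples formed 1 group with 2 biological replicates and no second condition, so values are described and no test over samples was possible. Whole animals were used, so a peak cannot be assigned to a cell type, and the growth of each replicate is not described in the labels, so the spread between them may be technical.

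The 30 strongest of these peaks had pooled signal values between 155 and 739.6, and several of them share stretches of sequence. The summit with 50 bases to either side is shown for members chosen because they carry the AACACGC, GA-rich or CG-rich sequences discussed below. The bases are written 5' to 3' along the strand of the gene, from the RefSeq genome on build WBcel235 (ce11). Capitals mark matches, on either strand, to the 7-mers AACACGC and GCGTCTC and to the 6-mers GAGAGA or AACGCG or GGCGCA. The described SEM-4 site (TTGTCT or TTGTGT) and the E-box (CACGTG) would also be in capitals, but none of the windows shown holds them. Over the first 30 members, TTGTGT was at 2 summits, those of ins-39 and cmtr-1, and TTGTCT at 2, among them that of cmtr-1. Among the first 30 not shown, several have none of these sequences. They include his-37, nspc-17, H41C03.3, Y39E4B.6, F08G2.5, ain-1 and fbxb-58. The first 4 shown are the 4 members of highest signal and share AACACGC, or GCGTGTT when read on the other strand.
rpl-3, plus strand, chrIII:3867536-3867636: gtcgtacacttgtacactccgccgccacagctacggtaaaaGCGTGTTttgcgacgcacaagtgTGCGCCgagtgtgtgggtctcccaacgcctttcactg
cox-5A, plus strand, chrIII:12905148-12905248: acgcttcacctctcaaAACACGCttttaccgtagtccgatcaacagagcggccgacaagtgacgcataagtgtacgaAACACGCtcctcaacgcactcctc
cdc-48.1, minus strand, chrII:10563514-10563614: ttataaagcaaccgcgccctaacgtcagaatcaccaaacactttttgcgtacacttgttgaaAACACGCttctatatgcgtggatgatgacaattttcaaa
rpl-35, plus strand, chrIII:7854635-7854735: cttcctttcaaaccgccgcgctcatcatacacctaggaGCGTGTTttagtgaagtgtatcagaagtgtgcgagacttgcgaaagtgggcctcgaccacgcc

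The next 2 summits show the GA-rich kind, in which GAGAGA appears as TCTCTC on the gene strand.
hsp-1, plus strand, chrIV:17278519-17278619: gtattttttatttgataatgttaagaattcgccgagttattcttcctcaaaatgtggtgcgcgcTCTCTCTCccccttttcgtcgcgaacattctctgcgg
K12H4.5, plus strand, chrIII:8043930-8044030: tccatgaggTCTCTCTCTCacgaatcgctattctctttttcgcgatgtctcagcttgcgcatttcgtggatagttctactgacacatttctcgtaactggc

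The last 4 show the CG-rich hexamers AACGCG and GGCGCA alone or together with GA-rich elements, and the genes ntl-11 and Y73F8A.27 diverge from 1 intergenic gap.
eelo-2, plus strand, chrIV:17249853-17249953: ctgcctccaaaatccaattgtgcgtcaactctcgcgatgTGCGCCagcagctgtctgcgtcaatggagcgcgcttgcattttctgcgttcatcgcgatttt
cbp-1, plus strand, chrIII:9765580-9765680: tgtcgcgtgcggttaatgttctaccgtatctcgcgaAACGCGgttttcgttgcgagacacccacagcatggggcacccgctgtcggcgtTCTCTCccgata
ntl-11, minus strand, chrIV:15471574-15471674: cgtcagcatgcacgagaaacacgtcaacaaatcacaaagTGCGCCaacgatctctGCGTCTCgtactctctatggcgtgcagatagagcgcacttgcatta
Y73F8A.27, plus strand, chrIV:15472538-15472638: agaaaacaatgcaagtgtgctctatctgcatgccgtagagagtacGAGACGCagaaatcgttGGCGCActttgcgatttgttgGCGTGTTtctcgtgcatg

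The values are the authors' own signal per peak. Each list has a scale of its own that depends on its reads, so values are compared only within a list. The lists hold no read counts, so the depth is unknown. Each replicate had its own relaxed list of 30000 peaks, and a further relaxed list of 30000 peaks was called on both replicates pooled. The reproducible list was exactly the strongest end of the pooled list, so a high pooled signal chose the peaks and is not itself a finding. Intervals given with shares are exact binomial (Clopper-Pearson) 95% intervals, cover counting error only and treat peaks as independent, which neighbouring peaks and genes are not.

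Single-gene upstream peaks made up 26.5% of the reproducible list (interval 24.8 to 28.3). Of the 4310 relaxed peaks in the same position, 660 (15.3%, 14.3 to 16.4) were reproducible, whereas over relaxed peaks of every class 8.30% were. Shared divergent promoters, where 1 summit lies in the windows of 2 or more genes, had 337 of 943 (35.7%, 32.7 to 38.9). Distal intergenic summits had 587 of 7601 (7.72%, 7.13 to 8.35), and introns outside any window had 350 of 8055 (4.35%, 3.91 to 4.81). The single-gene class thus lay between shared promoters and the other classes, with no overlap of the intervals. Its median signal was 59.5 (quartiles 48.6 and 83.2), against 64.3 in shared promoters, 54.7 in distal intergenic sequence and 54.5 in introns. These differences between classes were not tested, because peaks are not replicates.

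The 4 strongest members lay upstream of genes for ribosomal proteins, respiration and protein quality control. The highest summit was 268 bp upstream of rpl-3, a protein of the large ribosomal subunit, with a signal of 483 in replicate 1, 276 in replicate 2 and 739.6 in the pooled list. The summit of cox-5A, which encodes part of cytochrome c oxidase, stood 293 bp upstream with 471 in replicate 1, 236 in replicate 2 and 703 pooled. That of cdc-48.1, an AAA ATPase that unfolds ubiquitinated proteins, stood 157 bp upstream with 434 in replicate 1, 232 in replicate 2 and 637 pooled. These 3 held ranks 4, 5 and 6 in each replicate's own list, in the same order in both. A step down followed to rpl-35, at 449 bp, with 272 in replicate 1, 143 in replicate 2 and 407 pooled.

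Below these came the histone H4 gene his-37 at 87 bp upstream, with 211 in replicate 1, 136 in replicate 2 and 336 pooled. The serp-1.1 summit, 285 bp upstream, had 171 in replicate 1, 129 in replicate 2 and 299 pooled. The egg-5 gene, which encodes an inactive phosphatase needed when the oocyte becomes an embryo, had 179 in replicate 1, 110.4 in replicate 2 and 289 pooled, at 594 bp. The his-37 peak ranked 14 in both replicates, and serp-1.1 and egg-5 changed places between them. The next members were nspc-17 with 279 pooled, F36A2.7 with 277, H41C03.3 with 277 and the ribosomal protein gene rpl-11.2 with 253. Y39E4B.6 had 238 pooled, cbp-1, a histone acetyltransferase of the CBP and p300 family, had 229, and eelo-2 followed with 125 in replicate 1 and 73.1 in replicate 2. The Hsc70 chaperone gene hsp-1 had 187 pooled and the Hsp70 co-chaperone gene bag-1 had 180.2.

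The remaining 14 of the first 30 had pooled values from 155 to 176. They included the translation initiation factor gene eif-3.C (171), cox-5B, another subunit of cytochrome c oxidase (168), and tomm-20, the mitochondrial import receptor (164). They also included ain-1, a GW182-type protein of microRNA silencing (168), the insulin-like gene ins-39 (166), the cap methyltransferase gene cmtr-1 (165) and the epsin gene epn-1 of endocytosis (159.6). The F-box gene fbxb-58 (156), the CCR4-NOT subunit gene ntl-11 (155), tos-1 (172) and F08G2.5, F02E9.5, K12H4.5 and T28B8.1 (176, 173, 162 and 159.6) completed the set. The signal was higher in replicate 1's list than in replicate 2's at every one of the first 30 except T28B8.1, with 73.2 in replicate 1 and 79.9 in replicate 2. The 2 lists have different scales, so this order says nothing about occupancy.

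**Figure D1:**
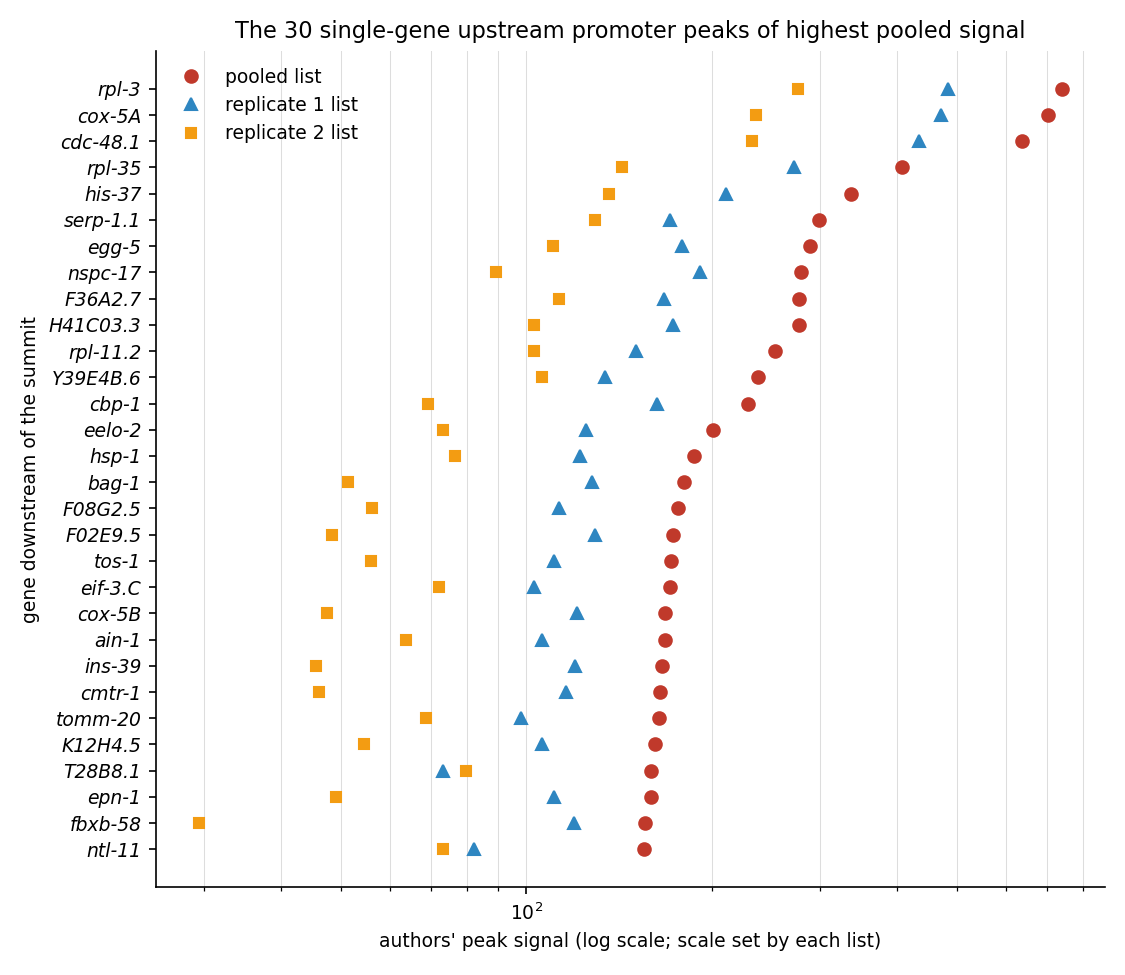
Authors' peak signal (log axis) of the 30 single-gene upstream promoter peaks of highest pooled signal, with the gene downstream of each summit on the vertical axis and 1 point for the pooled list and for each replicate's own list. The first 3 genes, rpl-3, cox-5A and cdc-48.1, lie at 637 to 739.6 in the pooled list and stand apart from the fourth, rpl-35, at 407.

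Nearly every member, like nearly every reproducible peak, was found in both replicates, but high ranks in both were less common. A peak is called top-ranked in a replicate when it overlaps one of that replicate's strongest peaks, taken in the same number as the reproducible list holds. Of the 660 members, 658 (99.7%) overlapped a relaxed peak in each replicate's list by at least 1 bp, as did 99.4% of all reproducible peaks. Top-ranked in both replicates were 433 (65.6%, interval 61.8 to 69.2), while 61.9% of all reproducible peaks were, counting the best-ranked overlapping peak. A further 122 members (18.5%) were top-ranked only in replicate 1, 85 (12.9%) only in replicate 2, and 20 (3.03%) in neither. The share followed pooled signal: all of the first 100 members, 310 of the higher-signal 330 (93.9%) and 123 of the lower-signal 330 (37.3%) were top-ranked in both. Pooled signal is made from both replicates, so this last relation is partly built in.

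Across the 658 members found in both lists, the Spearman correlation of the replicates' signals was 0.48 and the Pearson correlation of log2 signals was 0.56. These describe peaks that share the same libraries. The Spearman value was 0.59 in shared promoters, 0.33 in distal intergenic sequence and 0.37 in introns. Replicate 1's summit was displaced from the pooled one by a median of 6 bp, and replicate 2's by 16 bp. The H18N23.2 peak had no partner in replicate 2 and a signal of 35.9 in replicate 1, and the M02D8.3 peak had none in replicate 1 and 21.7 in replicate 2.

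The members with the least equal ranks carried pooled values between 42.9 and 71.0. For a named peak, the replicate value is taken from whichever overlapping peak had the closest summit. The summit 752 bp upstream of ceh-20, a PBX-type homeobox gene, had 53.5 in replicate 1 (rank 524) and 4.13 in replicate 2 (rank 20347). For mbk-1, a DYRK-family kinase gene, the order was the other way, with 8.12 in replicate 1 (rank 19467) and 34.5 in replicate 2 (rank 621). C53B4.3, Y17G7B.18 and T19A6.1 ranked 1105, 868 and 1016 in replicate 1 and 18789, 25660 and 27172 in replicate 2. These 5 peaks therefore rest on 1 replicate each, 4 of them on replicate 1. By the best-ranked overlapping peak, 9 members (1.36%) were missing from a replicate or ranked beyond 10000 in one.

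**Figure D2:**
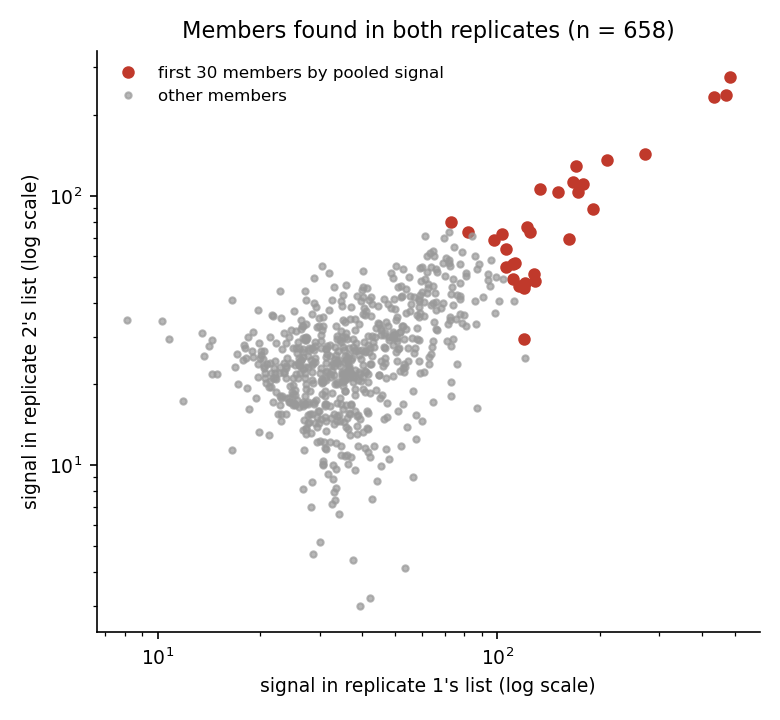
Signal of each member in replicate 1's list (horizontal, log axis) and replicate 2's list (vertical, log axis), for the 658 members found in both. The first 30 members by pooled signal lie at 73.2 or more in replicate 1 and at 29.4 or more in replicate 2, and the lower edge holds members such as ceh-20, with 53.5 in replicate 1 and 4.13 in replicate 2.

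The median member lay closer to the start than the median relaxed peak that missed the list. Its distance was 263 bp upstream (quartiles 153 and 478), against 351 bp (156 and 657) for the 3650 relaxed single-gene upstream peaks that were not reproducible. Within 200 bp of the start lay 245 members (37.1%) against 31.8% of those others, and within 500 bp lay 502 (76.1%) against 63.3%. The fullest 100-bp step was the second, with 157 members. The share of relaxed peaks that were reproducible was 14% in the first 100 bp (interval 11.4 to 17), 20.2% in the next 100 bp (17.5 to 23.2), 20.7% from 200 to 300 bp (17.4 to 24.3) and 18.9% from 300 to 400 bp (15.6 to 22.6). It stood between 10.9% and 13.3% from 400 to 800 bp, and at 7.12% and 7.97% in the last 2 steps. Distances refer to annotated starts, and in 50 members (7.58%) the annotated start was the start codon itself.

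**Figure D3:**
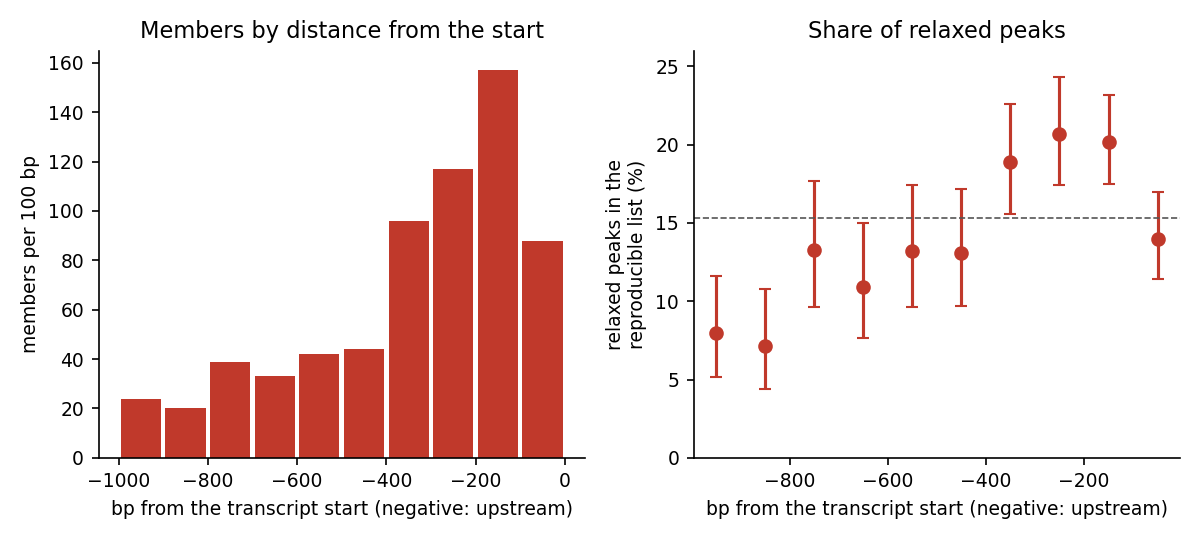
Left, number of members in each 100-bp step upstream of the transcript start. Right, percentage of relaxed single-gene upstream peaks in each step that were reproducible, with exact binomial 95% intervals and a dashed line at the 15.3% of all steps together; the values run from 7.12% to 20.7% and are highest between 100 and 400 bp upstream.

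At the outer edge of the window, the 3 members farthest from a start were vps-36, an ESCRT-II subunit gene, at 997 bp with a signal of 78.1, ain-1 at 996 bp with 168 and the potassium channel gene twk-39 at 991 bp with 48.6. Just outside stood algn-10 at 1003 bp with 86, nac-3 at 1004 bp with 43.4 and ugt-50 at 1006 bp with 40.3. No step in signal marks the 1000 bp limit in these 6 peaks.

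The neighbour behind each summit ran in the same direction as the member gene in 388 cases (58.8%) and in the opposite direction in 272 (41.2%). Among the relaxed peaks that were not reproducible, 63.0% had a neighbour in the same direction. The median gap between the 2 genes was 908 bp behind members with a tandem neighbour and 3222 bp behind those with a divergent one, against 1528 and 4298 bp for the others. A summit that also lay in a divergent neighbour's window was placed with the shared promoters, while the end of a tandem neighbour sets no such limit. The rule thus removes close divergent neighbours, so the wider divergent gap and the shares by direction are partly built in. The X chromosome held 160 members (24.2%), chromosome III 120, chromosome I 108, V 99, II 95 and IV 78. The reproducible share of relaxed single-gene peaks ranged from 12.7% on IV to 18% on III and was 16.7% on X.

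The 14 genes with 2 members had their summits 199 to 924 bp apart. In 7 of them, among these egg-5, H41C03.3 and ain-1, the spacing was within 10 bp of 199 bp, which was the smallest distance between any neighbouring pooled summits. Whether such a pair is 1 site or 2 cannot be told apart from these lists. The widest separations were at snpc-3.4 with 924 bp and at lgg-1, an autophagy gene, with 700 bp.

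Small non-coding genes lay near some members. Within 200 bp of 9 member summits (1.36%) stood an annotated snRNA gene, against 2 of the 3650 other relaxed single-gene summits (0.0548%). In this annotation the class includes sls genes, which encode spliced leader RNAs. Both summits of egg-5 lay by sls-2.4, at 23 and 67 bp, both of H41C03.3 by sls-2.1, at 37 and 56 bp, and that of W06D4.3 by sls-2.7, at 2 bp. Both summits of F38E11.9, and those of cox-6A and snr-4, lay by other snRNA genes. The 2 summits were 199 bp apart at egg-5, 202 bp at H41C03.3 and 200 bp at F38E11.9. Each of these pairs may be 1 site, so the 9 summits may not be separate sites. A snoRNA gene stood within 200 bp of 10 members (1.52%) against 0.301% of the others, and a tRNA gene by 3 (0.455%) against 0.575%. A piRNA gene stood by 3 members (0.455%) against 81 of the others (2.22%), and a gene of the ncRNA class by 41 (6.21%) against 5.59%. The rule counts protein-coding starts only, so which gene such a summit belongs to cannot be told apart here.

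Most member genes had no further reproducible summit. Besides the upstream peak, 50 of the 646 genes (7.74%) had one in their body, most of all lin-14, a heterochronic transcription factor gene, with 7, and ppfr-1 with 5. Another reproducible summit of any class lay within 500 bp of 24 members (3.64%), and the median distance to the next was 8762 bp.

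The sequence at members' summits was richer in G and C than its surroundings. In the window of 50 bp to either side of the summit the median GC content was 46.5% (quartiles 41.6 and 51.7), against 36.6% at the other relaxed single-gene summits. The same median, 46.5%, was found in shared promoters, and 45.5% in distal intergenic and in intronic summits. In windows of 21 bp the mean GC of members was 49.8% at the summit. It was 33.6% at 200 bp on the 5' side and 36.9% at 200 bp toward the gene. Shared promoters had a similar peak, with 50.8% at the summit and 34.4% and 35.0% at 200 bp to its sides. Distal intergenic summits had 45.8% at the summit and 36.6% and 35.8% at 200 bp to its sides.

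Motifs were counted on both strands at the summit, in the same window, and in flanks of 51 bp whose centres lay 200 bp from the summit on each side. The flanks together offer 92 start positions for a 6-mer against 96 at the summit. The site described for SEM-4, TTGTCT or TTGTGT, was present at the summit of 120 members (18.2%, interval 15.3 to 21.3) and in the flanks of 83 (12.6%, 10.1 to 15.3). Other relaxed single-gene summits had it in 15.7%. Among the first 100 members TTGTCT was at 5 summits and in the flanks of 5, and TTGTGT at 10 summits and in the flanks of 10. At this cut the counts at and beside the summit were equal. The intervals of the summit shares were wide, 1.64 to 11.3% and 4.90 to 17.6%. Among the higher-signal 330 members, the same sequences were at 26 and 39 summits and in the flanks of 21 and 27. Among the lower-signal 330 they were at 29 and 34 summits and in the flanks of 14 and 23. The equal counts were thus not seen in either set of 330.

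GAGAGA was the 6-mer furthest above its flanks. It lay at the summit of 179 members (27.1%, interval 23.8 to 30.7) and in the flanks of 55 (8.33%), and 13.9% of the other relaxed single-gene summits had it. In windows of the same length centred 250 bp upstream of all 19973 protein-coding genes it was present in 6.48%. Distal intergenic and intronic summits had more of it, 37% and 35.4%, and shared promoters less, 19%. Of the 184 members with a match centred within 50 bp of the summit, 65 had GAGAGA on the gene strand only, 113 had TCTCTC on it only, and 6 had both.

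GCGTCTC, an element described in worm promoters, lay at 86 member summits (13%, 10.6 to 15.8) and in the flanks of 5 (0.758%). The other relaxed single-gene summits had it in 3.70%, and all promoter windows in 1.23%. Its frequency was 9.50% in shared promoters, 10.1% in distal intergenic and 12% in intronic summits, so it was not confined to promoters. The most frequent 8-mer above flanks, AGACGCAG, shares AGACGC with the other strand of this element and lay at 82 member summits (12.4%) and in the flanks of 6. A sequence such as GCGTCTCTC holds both GCGTCTC and GAGAGA, read on the other strand, so the 2 counts overlap in part.

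A second set of sequences was CG-rich. AACGCG lay at 90 member summits (13.6%) and in the flanks of 7 (1.06%), and GGCGCA at 79 (12%) and in the flanks of 6 (0.909%). Both were picked after the counts of all 6-mers in these data had been seen, so their frequencies, and the differences between classes, are a description. At least 1 of the pair was present at 154 members (23.3%, 20.2 to 26.8) and in 28.8% of shared promoters (24.0 to 33.9), but in 7.67% of distal intergenic summits (5.65 to 10.1) and 8.57% of intronic ones (5.86 to 12). GAGAGA or GCGTCTC went the other way, with 34.5% at members and 24.3% in shared promoters, against 40.7% and 40.0% in distal intergenic sequence and introns. The strongest peaks of each replicate alone, in the same number, gave the same order. The CG-rich pair was at 22.6% of single-gene upstream summits and 7.33% of distal ones in replicate 1, and at 20.6% and 6.78% in replicate 2. Both lists come from the libraries that gave the reproducible list, so this order is not an independent check.

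Sorted by these sequences, 188 members held only GA-rich elements, 114 only the CG-rich hexamers, 40 both and 318 neither. Members with the CG-rich hexamers alone stood closer to the start, with a median of 228 bp and 87.7% within 500 bp, against 308 bp and 75% with GA-rich elements alone. Members with both had the highest median signal, 72.8, against 62.5 with CG-rich hexamers alone, 58.8 with GA-rich elements alone and 57.4 with neither. Top-ranked in both replicates were 77.5% of members with both, 73.7% with CG-rich hexamers alone, 62.8% with GA-rich elements alone and 62.9% with neither. The classes were formed after seeing the counts and these values were not tested.

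Several AT-rich motifs were scarcer at the summit than beside it. ATATT, bound by vertebrate SALL4, lay at 13.2% of member summits and in the flanks of 35.6%, and 36.8% of all promoter windows had it. TATAAA, the TATA box, had 3.79% and 12.3%, the GATA-type TGATAA 4.24% and 9.70%, and TTTCAG, which resembles a splice acceptor, 4.24% and 15%. In the strongest single-gene upstream summits of 1 replicate alone, TATAAA was at 5.95% in replicate 1 and TGATAA at 2.56% in replicate 2. The high GC content of the summits moves with these counts, and its part in them was not tested. Of the others, the E-box CACGTG lay at 5.61% of summits and in 2.12% of flanks, the Sp1-type CCGCCC at 4.24% and 1.06%, and the AP-1 type TGACTCA at 4 summits and in the flanks of 1 member.

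**Figure D4:**
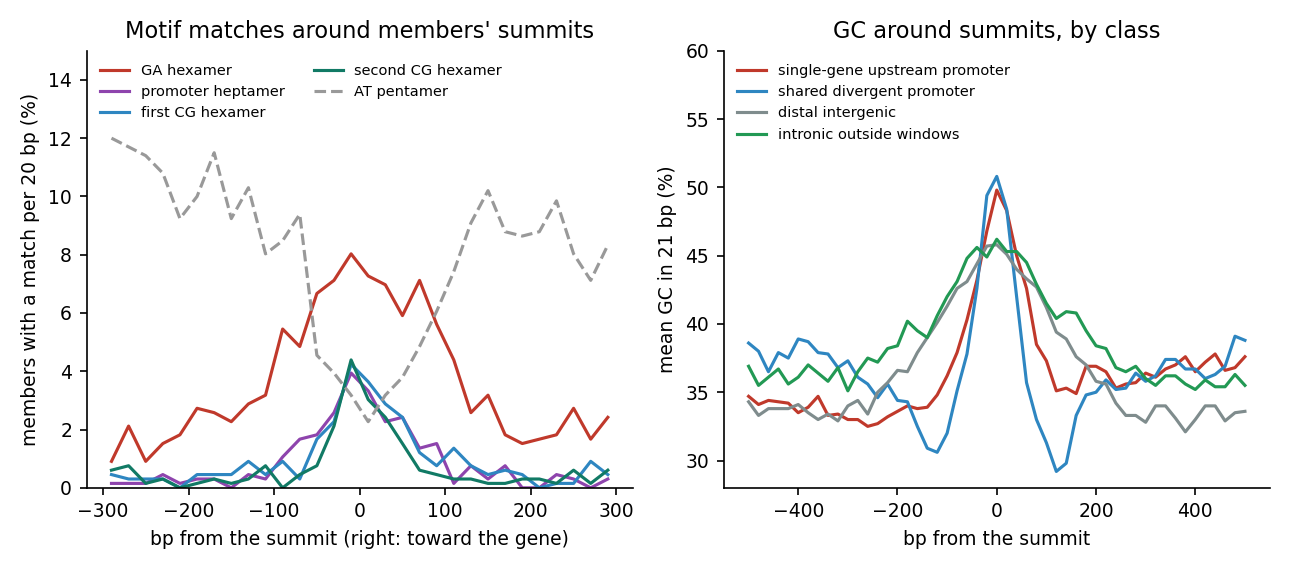
Left, percentage of members with a match in each 20-bp step around the summit, oriented so that the gene lies to the right; the promoter heptamer is GCGTCTC and the GA hexamer is GAGAGA, while AACGCG or GGCGCA are the CG hexamers and ATATT is the AT pentamer. Right, mean GC in windows of 21 bp by class (distal summits have no orientation). The peak is 49.8% at member summits, 50.8% in shared promoters and 45.8% at distal intergenic summits.

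The 7-mer AACACGC, chosen after the strongest sequences had been seen, lay at 5 of the first 10 members, namely serp-1.1 and the 4 strongest. It lay at 11 of the first 100 and at 34 of all 660 (5.15%), in the flanks of 5, and in 0.711% of all promoter windows. Shared promoters had 5.04%, distal intergenic summits 1.53% and introns 0.857%. Because it was chosen from the strongest summits, its count there is a description only.

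Longer runs of identical sequence also recurred between members. Of the 660 summits, 175 (26.5%) shared an unbroken run of at least 16 bases, on either strand, with the summit of another member that did not overlap it. In windows of equal length centred 300 bp on the 5' side, 51 (7.73%) did so, and the longest run there was 19 bases. The GC content of these windows differs from that of the summits, and its part in the difference was not tested. The first 2 members, rpl-3 and cox-5A, shared 21 bases that occur at only 2 places in the genome, and ntl-11 and Y73F8A.27, whose summits are 964 bp apart in 1 gap, shared 20 bases, also found at 2 places. The longest run, 75 bases, joined the summits of eel-1 and Y62F5A.12 and occurs 16 times in the genome. These runs are written along the strand of the first gene named, with matches to AACACGC or GCGTCTC in capitals, because they join the strongest members and a divergent pair of genes.
rpl-3 and cox-5A, chrIII:3867566-3867586 and chrIII:12905161-12905181: ctacggtaaaaGCGTGTTttg
ntl-11 and Y73F8A.27, chrIV:15471603-15471622 and chrIV:15472573-15472592: tctGCGTCTCgtactctcta

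Among the 3646 genes with a relaxed single-gene upstream summit, 646 (17.7%) had a reproducible one, and lists of genes differed widely around that value. The median signal of the best summit over all 646 was 59.7. The lists were compared by their counts alone, and none was tested. Where the strongest peaks of a single replicate, taken in the number of the reproducible list, moved a list's count by more than 1.5 times, that count is given beside it.

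Cytosolic ribosomal protein genes had the highest share of any list, with splicing and Sm proteins close to them at 5 of 6 (83.3%). Of 19 cytosolic ribosomal protein genes with a relaxed summit, 16 had a reproducible one (84.2%, interval 60.4 to 96.6), with a median signal of 74.0. This count fell to 8 with the window extended to 2000 bp upstream, and was 20 with the window cut to 500 bp upstream. After rpl-3, rpl-35 and rpl-11.2 came rpl-41.2 with 55.7 in replicate 1, 39.6 in replicate 2 and 103 pooled. The best summit of each of the 16 lay between 147 and 548 bp upstream. Mitochondrial ribosomal proteins had 4 of 14 (interval 8.39 to 58.1%), led by mrpl-28 (103) and mrpl-55 (79.3), then mrpl-32 (52.1) and mrpl-36 (43.6). Translation factors had 5 of 15 (11.8 to 61.6%), with eef-1A.2 at 118, eif-3.B at 98.3 and the poly(A)-binding protein gene pab-2 at 54.9 after eif-3.C. The aminoacyl-tRNA synthetases had 1 of 5 (0.505 to 71.6%), aars-2 with 44.4, and 2 in replicate 2 alone. The intervals of these last 3 lists include the share over all genes.

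Genes of respiration, chaperones, protein turnover and splicing are taken next, and not in order of share. The respiratory chain and ATP synthase had 6 of 9, with ucr-2.2 of complex III at 102 and the cytochrome c1 gene cyc-1 at 98.7 after cox-5A and cox-5B. The vacuolar ATPase had 2 of 7, vha-12 (107) and vha-15 (65.7), and 4 in replicate 1 alone. Chaperones had 4 of 13, in which hsp-1 was followed by dnj-9 (154), the endoplasmic reticulum chaperone gene hsp-3 (113) and dnj-7 (65.7). The proteasome and CDC-48 list had 3 of 7, with rpn-11 at 59.4 and rpt-1 at 43.9 far below cdc-48.1. The ubiquitin pathway had 8 of 35, close to the share over all genes, with ubc-25 (131), usp-39 (99.8) and usp-4 (82.1) after fbxb-58. Splicing and Sm proteins had 5 of 6, among them rsp-8 (95.9), snr-4 (73.3), snrp-3 (65.2) and rsp-6 (56.5). This count was 3 in replicate 1 alone, and 1 with the window extended to 2000 bp upstream. The interval of the vacuolar ATPase was 3.67 to 71.0%, that of chaperones 9.09 to 61.4%, and that of the proteasome list 9.90 to 81.6%. That of the ubiquitin pathway was 10.4 to 40.1%, and each of these includes the share over all genes. The intervals of respiration (29.9 to 92.5%) and of splicing (35.9 to 99.6%) lie above that share.

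Cytoskeleton and trafficking genes were represented by 9 genes each. Kinesins, tubulins and actins had 9 of 18 (interval 26 to 74%), led by the alpha-tubulin gene tba-2 (119), klp-13 (81.9), the axonal kinesin gene unc-104 (60.2) and act-4 (56.6). Small GTPases and trafficking genes had 9 of 36, led by vps-60 (118), the exocyst gene sec-3 (89.7), vps-37 (89.2) and vps-36. Histones had 3 of 12, where his-37 was followed by the H3.3 gene his-72 (65.7) and hil-3 (42.8). The intervals for trafficking (12.1 to 42.2%) and histones (5.49 to 57.2%) include the share over all genes.

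The list of NuRD, MEC and synMuv chromatin genes had 9 of 19 (47.4%, 24.4 to 71.1), with lin-9 of the DRM complex at 123, lin-13 at 87.3, the H3K36 methyltransferase gene met-1 at 77.3 and lin-36 at 58.0. GA-rich elements lay at 6 of these 9 summits, and over all 646 genes they lay at the best summit of 224, with the CG-rich hexamers at 153. Panneuronal and synaptic genes had 9 of 25 (36%, 18 to 57.5), led by the RAB2 gene unc-108 with 75.4 in replicate 1, 35.0 in replicate 2 and 115 pooled. Then came the liprin gene syd-2 (111), unc-104 and the carboxypeptidase gene egl-21 (55.3). The panneuronal count was 5 in replicate 2 alone and 3 in the 50% of the list with higher signal, and the lower end of its interval lies next to the 17.7% of all genes. GA-rich elements lay at 4 of the 9 and the CG-rich hexamers at 0.

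Lists of developmental regulation had between 3 and 4 genes each. Of 12 heterochronic genes 4 had one (33.3%, 9.92 to 65.1), ain-1 first, then apl-1, the worm APP gene (56.4), lin-14 (56.2) and lin-66 (44.2). Wnt and asymmetric division genes had 4 of 17 (23.5%, 6.81 to 49.9), with the beta-catenin gene wrm-1 (77.9), the Groucho gene unc-37 (54.5), lin-18 (49.8) and pig-1 (48.1). The lin-18 peak had 30.1 in replicate 1 and 5.17 in replicate 2, where it ranked 15841. EGF, Ras and Notch genes had 3 of 14 (21.4%, 4.66 to 50.8), with lin-10 (61.8), sel-10 (60.2) and sur-5 (55.9). Genes of the cell fates that depend on sem-4 in mutant studies, namely touch receptor neurons, HSN, the Y-to-PDA change and the sex myoblasts, had 3 of 18 (16.7%, 3.58 to 41.4). These were the Hox gene mab-5 at 837 bp upstream with 47.9 in replicate 1, 10.5 in replicate 2 and a pooled rank of 1142, the alpha-tubulin gene mec-12 with 52.4 pooled and sma-9 with 40.4. In replicate 2 alone the list had 1. All of these 4 intervals include the share over all genes, and sma-9 stood near the lowest member signal of 40.4.

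Among transcription factors, homeobox genes had 3 of 24, ceh-20, mab-5 and the posterior Hox gene nob-1 (41.1), and bHLH genes had 1 of 8, hlh-11 (141). Both shares were 12.5%. Their intervals, 2.66 to 32.4% and 0.316 to 52.7%, include the share over all genes. In replicate 2 alone the homeobox count was 1 and the bHLH count 2, and with the window cut to 500 bp upstream the homeobox count was 0. Nuclear hormone receptor genes had 10 of 80 (12.5%, 6.16 to 21.8), led by nhr-1 (113), the fat metabolism regulator nhr-49 (104), nhr-48 (84.8) and nhr-32 (79.0). The interval of this list includes the share over all genes. GA-rich elements lay at 8 of these 10 summits, and at the best summit of 224 of all 646 genes. The GATA, T-box, Fox and Sox factors had 0 of 9 and the seam and epidermal regulators 0 of 10, where counting error allows shares of up to 33.6% and 30.8%. These zeros depend on the list used, since the GATA, T-box, Fox and Sox factors had 2 in replicate 1 alone and 1 when only protein-coding bodies were avoided, and the seam regulators had 2 in replicate 2 alone.

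Cuticle collagens and chemoreceptors had intervals below the share over all genes. Cuticle collagens had 1 of 38 (2.63%, 0.0666 to 13.8), sqt-1 with 51.2, and chemoreceptors had 2 of 49 (4.08%, 0.498 to 14), sre-23 with 49.7 and srh-76 with 42.1. The collagen count was 2 in either replicate alone, and the chemoreceptor count 1 in replicate 2 alone. The srh-76 peak had 28.7 in replicate 1 and 4.68 in replicate 2, where it ranked 17718. Neuropeptides and insulins had 2 of 27 (0.910 to 24.3%), ins-39 and nlp-20 (73.1). Muscle sarcomere and attachment genes had 2 of 21 (1.17 to 30.4%), the kindlin gene unc-112 (84.6) and act-4. Taking the lists together, 123 of 541 listed genes (22.7%) had a reproducible summit.

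**Figure D5:**
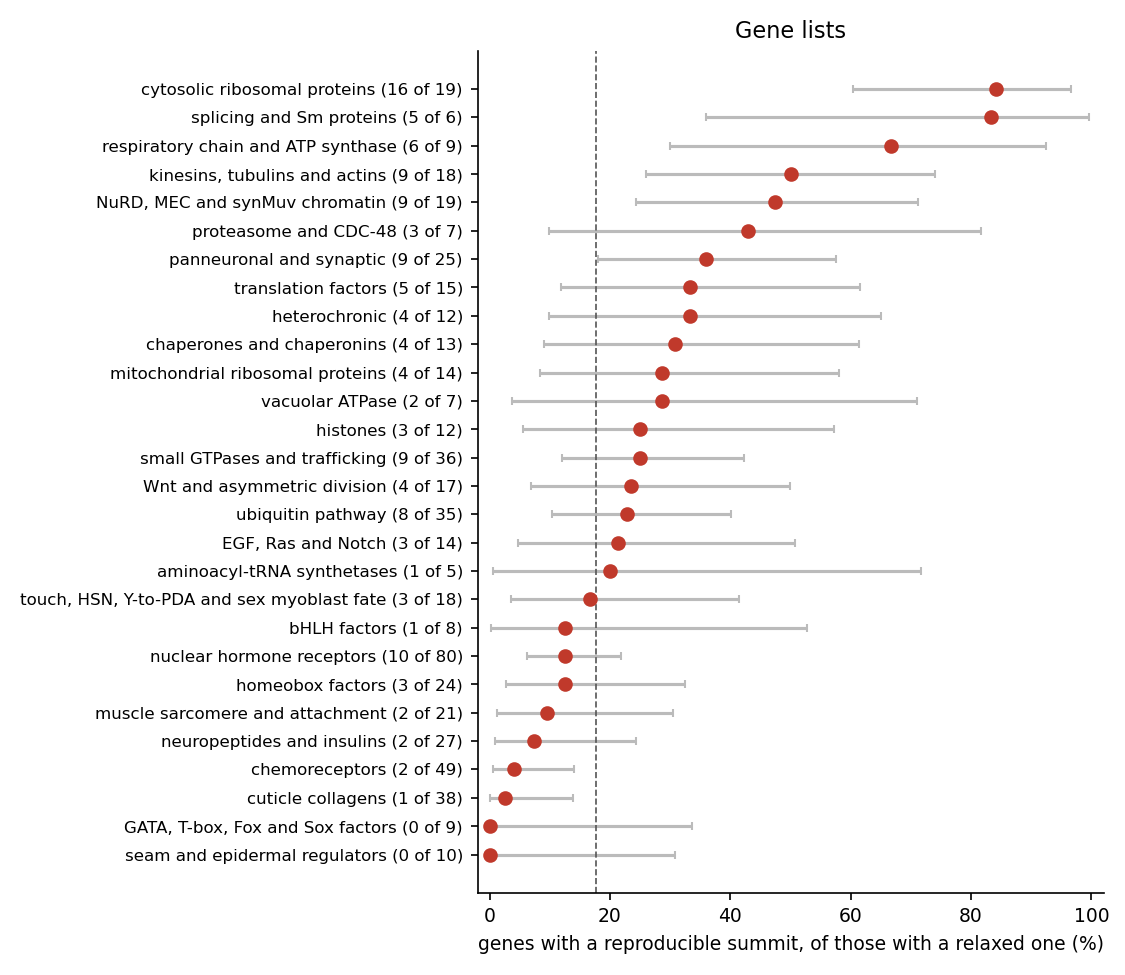
Percentage of genes with a relaxed single-gene upstream summit that had a reproducible one, for the 28 gene lists, with exact binomial 95% intervals and counts in the labels; the dashed line is the 17.7% of all 3646 genes. The points run from 0% for seam and epidermal regulators to 84.2% for cytosolic ribosomal proteins, and most intervals include the line.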

How the data were processed

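ChIP-seq peak lists on assembly ce11 were used for 2 replicates of 1 group, in the narrowPeak layout, per the deposited text file lists. The authors' signal (column 7) ranked the peaks, and the deposited −log10 q-value (column 9) was only inspected. The relaxed lists came from each replicate or from both pooled, with a control, per the deposited text file lists, and aligner, peak caller and reproducibility threshold are not given in the sources used here. Lists on ce10 and the control were not used. The files hold no read counts, so depth is unknown.

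Summits were placed on Ensembl release 115 gene models, and sequence came from the RefSeq genome of the same build, with Python 3.11.15, numpy 2.4.6, scipy 1.17.1, pandas 2.3.3 and matplotlib 3.10.9. The "remaining" peaks, in exons or in windows inside genes, were compared only through the totals. Peaks of different lists were matched by at least 1 bp of overlap. Placement, matching and motif search were tested on simulated data.

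Members, gene lists and motifs were chosen with earlier results of these data known. Named were the genes of the 30 strongest members, up to 4 genes per list, 3 peaks on each side of the 1000 bp limit, the 5 with the most unequal ranks and any gene with 3 or more members, of which there were 0. Other genes, such as those sharing sequence, having 2 members, missing from a replicate or near non-coding genes, were picked after their values were seen. Settings varied were the window, the gene bodies avoided, summit or midpoint, signal, overlap, rank bound, sequence width and single-replicate lists.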

Additional observations from a re-analysis of the deposited data

How the results depend on the processing

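Several values moved with the window, the strength of the peaks and the width of sequence. Narrowing the window to 500 bp before and 100 bp past the start gave 23.8% of the list, 19% of relaxed peaks reproducible and a median distance of -198 bp. With 2000 bp before the start, 11.4% of relaxed peaks were reproducible, the median signal was 56.7, the distance -414 bp and 32.7% of summits had GAGAGA. Avoiding only protein-coding gene bodies gave 29.1% of the list. The 50% of the list with higher signal gave 8.12% of relaxed peaks, 93.4% top-ranked in both replicates, a median signal of 81.2, 48.5% GC and 72 listed genes. An overlap of 50% on both sides lowered the share in both to 59.2%, and a bound of rank 5000 raised it to 92.0%. With 25 bp to either side of the summit, the median GC content was 49%, while 15.6% of summits had GAGAGA and 7.42% of them had the promoter element GCGTCTC. With 100 bp to either side the values were 42.3%, 43.6% and 20.2%. The strongest peaks of 1 replicate alone gave 25.1 to 26.3% of the list, 14.5 to 15.3% of relaxed peaks, 66.7 to 68.5% top-ranked in the other replicate too and medians of -274 to -264 bp. They gave a median GC content of 45.5 to 47.5%, the GA-rich hexamer at 24.0 to 28.2%, the promoter element at 11.3 to 14.9% and 114 to 121 listed genes. Of the other values, 20 single-motif shares moved beyond their interval and 61 did not, and 46 counts of single lists, which have no interval, changed by more than 1.5 times and 150 did not. The median signal has no single-replicate value, because those lists are on other scales. No paired analysis was possible because there is only 1 group. Limits are the 2 replicates, the unknown depth, the tagged transgene, the whole animals and the annotated starts, which may not be where transcription begins.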

Other observations

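Peaks of 350 bp, the commonest width, made up 602 of the 660 members (91.2%), and the widths ran from 88 to 459 bp. The strongest members were narrower than that, with 270 bp at rpl-3, 272 bp at cox-5A and 269 bp at cdc-48.1. Among the matches centred within 50 bp of a member summit, the median distance to the nearest one was 20.5 bp for GAGAGA, 18 bp for GCGTCTC, 18.5 bp for AACGCG and 17.5 bp for GGCGCA, against 28 bp for ATATT. The 8-mer AAACGCGC, which holds AACGCG, lay at 44 member summits (6.67%) and at nearly the same share of shared promoters, 6.53%. Distal intergenic summits had it in 0.852% and intronic ones in 1.14%. The 8-mer GCAAACAC lay at 42 member summits (6.36%) and in the flanks of 3, against 8.61% of shared promoters, 1.36% of distal intergenic and 0.286% of intronic summits. The repeat GAGAGAGA went the other way, with 36 member summits (5.45%) and 4.15% of shared promoters against 12.9% of distal intergenic and 11.4% of intronic summits.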
